A study of Mus musculus with 17 samples.

Results

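The 50 genes described here encode factors that make ribosomes, and they were taken by symbol from a list of such factors. All 50 were among the 21848 genes of the count matrices, and all 50 passed the filter on low counts in the time course and in the CDK2 sort. Ribosome biogenesis starts in the nucleolus, where RNA polymerase I copies the ribosomal DNA into a long precursor RNA. Small nucleolar ribonucleoproteins (snoRNPs) guide chemical modification of that precursor, the small-subunit processome folds and cuts its 5′ part, and a further set of factors assembles the large subunit before both subunits leave the nucleus. Activated B cells raise this programme when they receive T cell help and grow before division, and germinal centre (GC) B cells do so as they move into the dark zone (DZ). The genes were set in 8 lists by role, from RNA polymerase I to the large-subunit factors.

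Sorted GC B cells from lymph nodes, each mouse marked with hashtag antibodies, were pooled and sequenced as 10X Genomics 5′ libraries. In the time course, OVA-primed wild-type hosts carried transferred B1-8hi B cells (specific for the hapten NP), of which a minority expressed the receptor DEC-205 and the rest were Ly75-/-, and were immunized with NP-OVA in the footpad. The hosts also kept their own B cells, and by the study's account the sequenced cells were DEC-205+. Some mice then received anti-DEC-OVA, an antibody that delivers ovalbumin to DEC-205+ cells and so drives them to obtain T cell help and to cycle in the DZ without new selection (inertial cycling). The groups were 0 h (day 7 after immunization, 9 mice), untreated 48 h (day 9, 6 mice), treated 48 h (9 mice), untreated 72 h (day 10, 8 mice) and treated 72 h (7 mice), in 2 experiments of 25 and 14 mice. In the CDK2 sort, B1-8hi cells carried a DHB-tdTomato reporter knocked in at Rosa26, some together with H2B-GFP, and every mouse was treated 72 h before collection. The reporter sits in the nucleus when CDK2 activity is low (CDK2-low) and in the cytoplasm when it is high (CDK2-high), and an imaging sorter separated both states from the same 7 mice. Each state was a library of its own, so the state and the library cannot be told apart, and at the level of summed cells a shift in which cells were sorted and a shift within each cell cannot be told apart either.

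Unique molecular identifier (UMI) counts were summed over the cells of each mouse and are given as CPM, counts divided by the mouse's total and scaled to the same library size. Time-course mice had 292 to 1045 cells and 1984426 to 13373185 UMIs, and each CDK2 population had 278 to 1679 cells a mouse. The GC B cell markers Bcl6, Fas, Mef2b, S1pr2 and Rgs13 were detected in every group, with group medians of 223 to 385 CPM for Bcl6 and 71.4 to 147 CPM for Rgs13, the lowest of these, whereas 5 T cell markers summed to at most 51.9 CPM in any mouse, 5 plasma cell markers to 81.6 to 252 CPM and 4 myeloid markers to 119 to 289 CPM. Xbp1 carried most of the plasma cell sum (group medians of 91.9 to 167 CPM, with Sdc1 at most 1.97 and Prdm1 at most 6.99) and Cst3 most of the myeloid sum (161 to 245 CPM, with Itgam at most 0.503 and Csf1r at most 0.137). None of these markers was at 0 in all mice of a group. Any 2 libraries shared 6 to 94 cell barcodes, at most 0.572% of the barcodes of either. The experiments differed in mitochondrial share (a mean of 2.38% of UMIs in treated 48 h mice of the first and 4.75% in the second), and the fits carry a term for the experiment.

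Summed over the 50 genes, the level stood highest in treated mice at 48 h. It was 5476 ± 812 (SD, n = 9) CPM at 0 h, 6122 ± 878 (SD, n = 6) at 48 h without treatment and 7108 ± 929 (SD, n = 9) at 48 h after anti-DEC-OVA. At 72 h it was 6089.8 ± 882 (SD, n = 8) CPM without treatment and 5650.1 ± 977 (SD, n = 7) with it. The second experiment ran higher in each of these groups, so the values are clearest within an experiment. In the first, treated 48 h mice had 5795 to 7125 CPM and untreated ones 5073 to 6583, and these ranges overlapped. In the second, treated mice had 7761 to 8769 CPM and untreated ones 6829.8 to 7244, with no overlap. At 48 h the first experiment held 6 treated and 4 untreated mice, and the second only 3 and 2. Ranges of so few mice can part by chance, so a lack of overlap in the second experiment carries little weight, here and below. How many of all genes lacked overlap was not counted. Npm1 and Ncl gave 23.2% and 17.6% of the summed level over all mice, so these 2 genes weigh heavily in the sum.

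**Figure D1:**
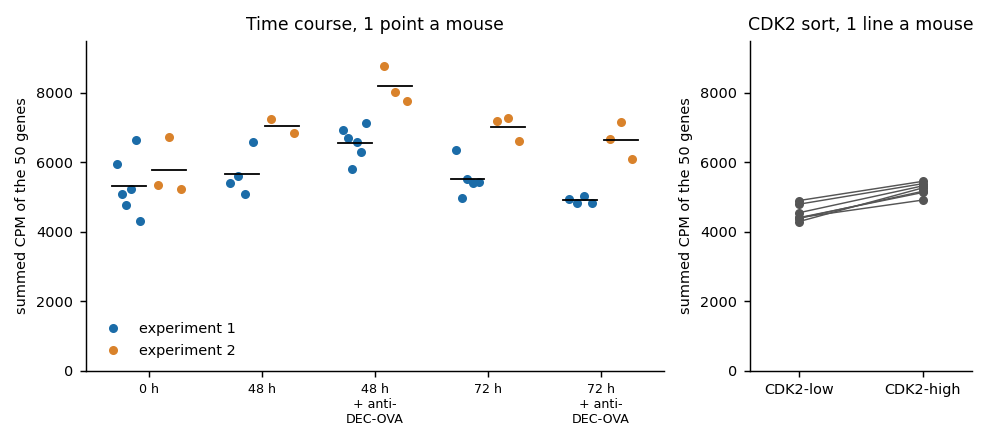
Summed CPM of the 50 ribosome biogenesis genes in each mouse of the time course (left, 1 point a mouse, coloured by experiment, black lines are means) and in the CDK2-low and CDK2-high cells of each mouse of the sort (right, 1 line a mouse). Treated 48 h mice of the second experiment sit at 7761 to 8769, above every other group, and all 7 lines rise from CDK2-low to CDK2-high. Npm1 and Ncl carry most of the rise in the sort.

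A cell of a treated 48 h mouse held 107 ± 11.9 (SD, n = 9) UMIs of these genes, and a cell of an untreated one 51.4 ± 8.66 (SD, n = 6), a ratio of 2.08. UMIs of all genes per cell moved from 8420.5 ± 1015 (SD, n = 6) to 15086 ± 1340.1 (SD, n = 9), a ratio of 1.79. The CPM scale used below sets this larger total aside and compares shares of the RNA counted.

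At 48 h, 31 of the 50 genes were higher in treated than in untreated mice and 0 were lower (edgeR quasi-likelihood test, Benjamini-Hochberg adjusted p below 0.05 over 10220 genes). Over all genes tested, 26.3% were higher and 21.1% lower. The median log2 fold change was 0.22 for the 50 genes and 0.01 for all genes, and 49 of the 50 had a positive value. All 31 called genes had the same sign in both experiments. The changes were modest, between -0.17 for Polr1b, which was not called, and 0.45 for Npm1. Without library scaling by trimmed mean of M values (TMM), 22 were higher and 0 lower, beside 18.5% and 30.1% of all genes, and the share of higher genes among all calls moved from 55.4% to 38.0%. With only the cells that carried the B1-8hi heavy- and light-chain pairing, the filter the study used, 13 were higher, beside 16.8% of all genes, and the median of the 50 genes was 0.13. The share of cells with that pairing moved with treatment at 48 h, being 62.3 to 67.4% in untreated and 70.5 to 77.7% in treated mice of the first experiment, and 34.7 to 38.8% and 53.1 to 58.0% in the second. Its part in the result was not tested. Naive or memory B cell markers (6 genes, none at 0, with Fcer2a alone at medians of 245 and 113 CPM) moved the other way over the same groups, at 232 to 366 CPM in untreated and 90.6 to 186 CPM in treated mice, and their part in the result was not tested.

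**Figure D2:**
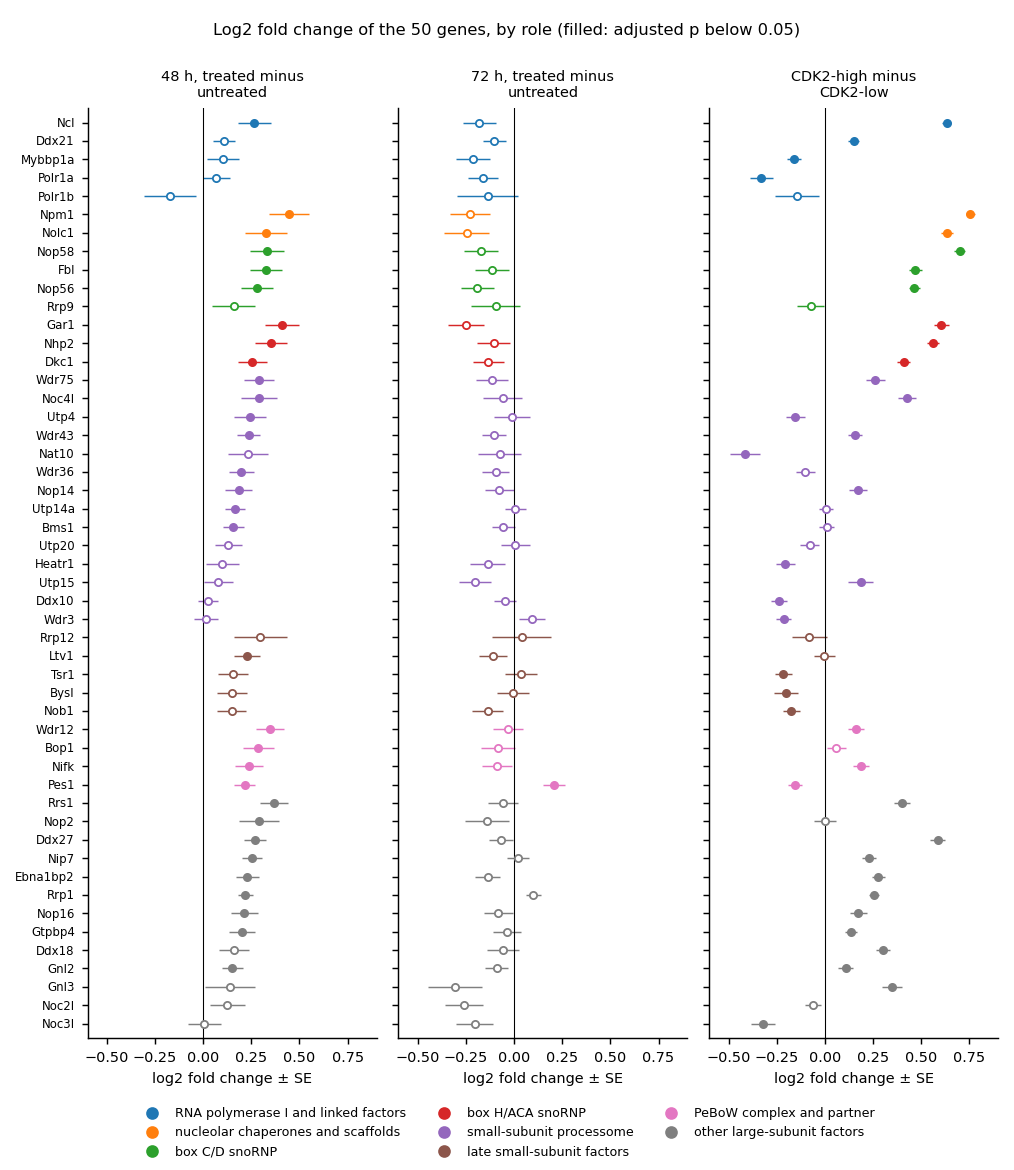
Log2 fold change with its standard error for each of the 50 genes, ordered and coloured by role, at 48 h and 72 h (treated minus untreated) and between CDK2-high and CDK2-low cells. Filled points passed an adjusted p of 0.05: 31 at 48 h, 1 at 72 h, and 39 in the sort, where they lie on both sides of 0. Of all genes, 26.3% were higher and 21.1% lower at 48 h, 4.67% and 3.88% at 72 h, and 36.5% and 38.6% in the sort.

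Both nucleolar chaperones and scaffolds were higher at 48 h, and Npm1 had the largest log2 fold change of the 50 genes. Npm1 (chr11:33100281-33113267 in GRCm39, minus strand), nucleophosmin, which holds the outer layer of the nucleolus together and escorts pre-ribosomal particles, had 1164 to 1669.5 (median 1455) CPM in untreated and 1472 to 2338 (median 1884) in treated mice. Its log2 fold change was 0.45 ± 0.10 (SE, adjusted p = 0.00048), and the treated mice lay above all untreated ones in the second experiment but overlapped with them in the first. Nolc1, a scaffold that binds snoRNPs in the nucleolus and in Cajal bodies, had 119 to 204 (median 153) CPM without and 140.4 to 223 (median 182) with treatment, overlapping in both experiments. It rose by a log2 fold change of 0.33 ± 0.11 (SE, adjusted p = 0.0131).

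Of the RNA polymerase I group, 1 of 5 genes passed, near the 26.3% of all genes that were higher at 48 h. That share is the one to set beside the count of every role list. Ncl (chr1:86272441-86287208, minus strand), nucleolin, which binds nascent pre-rRNA and ribosomal chromatin, had 854 to 1406 (median 1063) CPM in untreated and 938 to 1746 (median 1164) in treated mice, with a log2 fold change of 0.27 ± 0.09 (SE, adjusted p = 0.00999). The RNA helicase Ddx21 had 134 to 196 (median 158) and 136 to 222 (median 159) CPM, overlapping in both experiments, and its log2 fold change of 0.11 ± 0.06 (SE, adjusted p = 0.127) missed the threshold. Polr1a, the largest subunit of RNA polymerase I, lay at 21.9 to 32.9 (median 26.1) CPM without and 20.8 to 35.2 (median 25.2) with treatment. Its log2 fold change was 0.07 ± 0.07 (SE, adjusted p = 0.446), the value nearest 0 in this group. The polymerase subunit Polr1b and the transcription-linked Mybbp1a, with log2 fold changes of -0.17 and 0.10, did not pass either. Ncl was thus the only gene of this group that was called, and its treated mice lay above the untreated ones in the second experiment and overlapped with them in the first.

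Most snoRNP proteins rose. In box C/D particles, which direct 2′-O-methylation, 3 of 4 genes rose, and in box H/ACA particles, which direct pseudouridylation, 3 of 3 did. Gar1 (chr3:129618560-129625045, minus strand), a core H/ACA protein, had 56.4 to 86.2 (median 68.0) CPM in untreated and 76.6 to 101 (median 84.9) CPM in treated mice. This was a log2 fold change of 0.41 ± 0.09 (SE, adjusted p = 0.000147), and the groups did not overlap in the second experiment. Its partner Nhp2 had 141 to 195 (median 162) CPM in untreated and 170.2 to 218 (median 204) CPM in treated mice, a log2 fold change of 0.35 ± 0.08 (SE, adjusted p = 0.000454). Dkc1, the pseudouridine synthase itself, had the smallest change of these, with 91.9 to 149 (median 113) CPM in untreated and 107 to 175 (median 123) CPM in treated mice and a log2 fold change of 0.25 ± 0.08 (SE, adjusted p = 0.00516). For all 3 of these H/ACA genes the treated mice lay clear of the untreated ones in the second experiment and overlapped with them in the first.

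Among the C/D proteins, Nop58 had 166 to 264 (median 203) CPM in untreated and 199.6 to 319 (median 227) CPM in treated mice, and Fbl, fibrillarin, the methyltransferase, had 109 to 152 (median 128) and 119.5 to 187 (median 152) CPM. Their log2 fold changes were 0.33 ± 0.09 (SE, adjusted p = 0.00201) and 0.33 ± 0.09 (SE, adjusted p = 0.00157), and for both genes the groups did not overlap in the second experiment and overlapped in the first. Nop56, the third core protein, rose as well, by 0.28 on the log2 scale. Rrp9, which binds the U3 snoRNA of the processome, did not pass, at 20.9 to 31.0 (median 23.9) CPM without and 22.3 to 29.7 (median 26.5) CPM with treatment and a log2 fold change of 0.16 ± 0.11 (SE, adjusted p = 0.25).

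The small-subunit processome, the large particle that forms on the 5′ end of the precursor, had 8 of 14 genes higher and 0 lower, with a median log2 fold change of 0.17. Wdr75, a component that binds early with the polymerase, had 43.9 to 60.6 (median 47.3) CPM in untreated and 52.3 to 70.4 (median 54.4) in treated mice. The groups did not overlap in the first experiment and overlapped in the second, and the log2 fold change was 0.29 ± 0.08 (SE, adjusted p = 0.00199). Noc4l, a processome protein that pairs with Nop14, had 31.5 to 45.1 (median 34.1) and 34.3 to 54.4 (median 41.2) CPM, a log2 fold change of 0.29 ± 0.09 (SE, adjusted p = 0.00868). Its groups overlapped in the first experiment. In the second they barely parted, with a treated minimum of 34.2768 and an untreated maximum of 34.2758 CPM. At the other end, Wdr3 had 45.9 to 69.0 (median 53.4) CPM without and 43.1 to 67.4 (median 50.6) CPM with treatment and a log2 fold change of 0.01 ± 0.06 (SE, adjusted p = 0.884). The remaining called genes were Wdr43, Utp4, Wdr36, Nop14, Utp14a and Bms1, at 0.16 to 0.24, and the 5 others not called besides Wdr3 (Nat10, Utp20, Heatr1, Utp15 and Ddx10) had values between 0.03 and 0.23.

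Late small-subunit factors act on the particle as it leaves the nucleolus and matures in the cytoplasm. Of these, 1 of 5 passed, near the 26.3% of all genes that were higher. Ltv1, an export-linked factor, had 29.9 to 33.9 (median 33.4) CPM in untreated and 31.9 to 44.1 (median 36.3) in treated mice, with a log2 fold change of 0.23 ± 0.07 (SE, adjusted p = 0.0047). The GTPase-like Tsr1 had 41.1 to 50.9 (median 49.4) and 44.9 to 60.4 (median 49.2) CPM, and the endonuclease Nob1, which makes the last cut of the small-subunit rRNA, had 35.3 to 50.005 (median 45.4) and 41.9 to 51.2 (median 46.9) CPM. Both overlapped between the groups in each experiment, and neither log2 fold change, 0.15 ± 0.08 (SE, adjusted p = 0.0928) and 0.15 ± 0.07 (SE, adjusted p = 0.0983), passed. Bysl and Rrp12 did not pass either, at 0.15 and 0.30.

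In the large-subunit pathway, Pes1, Bop1 and Wdr12, which form the PeBoW complex, and Nifk, listed with them, all rose. For Wdr12 (chr1:60108944-60137926, minus strand), and for Nip7 of the next list, treated and untreated mice did not overlap in either experiment. The number of all genes with no such overlap was not counted. Wdr12 had 57.2 to 67.5 against 45.9 to 52.8 CPM in the first and 71.1 to 81.1 against 67.8 to 68.7 CPM in the second. Its log2 fold change was 0.35 ± 0.07 (SE, adjusted p = 0.00011). Bop1 had 35.8 to 44.3 (median 38.2) CPM in untreated and 36.9 to 49.7 (median 46.6) CPM in treated mice, a log2 fold change of 0.29 ± 0.08 (SE, adjusted p = 0.00272). Pes1 had 72.9 to 84.5 (median 78.7) and 78.2 to 102 (median 85.1) CPM, a log2 fold change of 0.22 ± 0.05 (SE, adjusted p = 0.00117). For both, the groups overlapped in the first experiment and not in the second. Nifk, which binds the proliferation antigen Ki-67, rose by 0.24 on the log2 scale.

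Of the other large-subunit factors, 9 of 13 rose. Rrs1 (chr1:9615633-9617680, plus strand), which brings a small RNA-protein particle to the assembling subunit, had 71.2 to 97.9 (median 76.3) CPM in untreated and 90.4 to 114 (median 97.3) CPM in treated mice. Its log2 fold change was 0.37 ± 0.07 (SE, adjusted p = 6.56e-05), with no overlap in the second experiment and overlap in the first. The methyltransferase Nop2 had 21.9 to 37.2 (median 29.7) and 29.7 to 39.0 (median 35.7) CPM, overlapping in both, with a log2 fold change of 0.29 ± 0.10 (SE, adjusted p = 0.018). Noc3l stayed closest to 0, at 17.9 to 29.6 (median 21.8) CPM without and 17.1 to 29.7 (median 20.7) CPM with treatment and a log2 fold change of 0.01 ± 0.08 (SE, adjusted p = 0.969). The called genes Ddx27, Nip7, Ebna1bp2, Rrp1, Nop16, Gtpbp4 and Gnl2 had log2 fold changes from 0.15 to 0.27, and the helicase Ddx18, the nucleolar GTPase Gnl3 and Noc2l, not called, from 0.13 to 0.16.

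**Figure D3:**
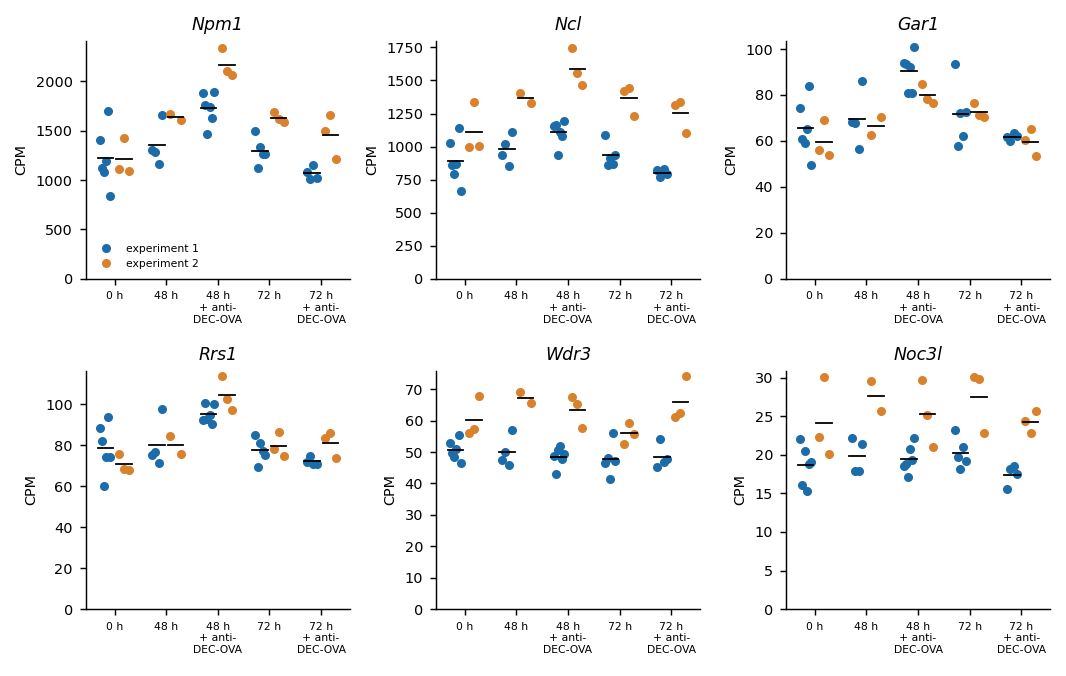
CPM of 6 of the genes in each time-course mouse, by group and experiment (1 point a mouse, black lines are means within an experiment). In both experiments the means of Npm1, Ncl, Gar1 and Rrs1 are highest in treated 48 h mice and lower in treated 72 h mice, whereas those of Wdr3 and Noc3l are highest in other groups.

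Many ribosome biogenesis genes are known targets of the transcription factor Myc, which binds the E-box CACGTG. RefSeq promoters (250 bases before to 50 after a gene's start, GRCm38.p6) were found for 43 of the 50 genes. Of these 43, 8 (18.6%) held the E-box, against 8.09% of all 27025 genes with a promoter, and the motif reads the same on both strands. The ETS core CCGGAA, searched on both strands, stood in 46.5% of the 43 and 16.7% of all genes, and the GC box GGGCGG in 74.4% and 38.2%. The 8 E-box windows are shown, 30 bases each with the E-box in capitals, because they hold the motif that the count turns on. Coordinates of the windows are in GRCm38.p6, unlike the gene positions above, which are in GRCm39, and E-box positions count from 1 at the annotated start of the gene, with negative numbers before it. Of the 8 genes, Ltv1, Nop2, Pes1, Utp4 and Wdr43 were among the 31 that rose at 48 h, and Mybbp1a, Tsr1 and Utp20 were not, so 62.5% of the 8 rose, beside 58.1% of the 43 genes with a promoter. A match is a description of letters, and binding was not measured.
Ltv1 (chr10:13193092-13193121, minus strand, E-box from position 29): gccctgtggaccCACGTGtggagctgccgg
Mybbp1a (chr11:72441347-72441376, plus strand, E-box from position 41): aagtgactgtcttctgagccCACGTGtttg
Nop2 (chr6:125131811-125131840, plus strand, E-box from position -60): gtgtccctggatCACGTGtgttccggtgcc
Pes1 (chr11:3963965-3963994, plus strand, E-box from position 3): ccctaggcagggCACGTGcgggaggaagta
Tsr1 (chr11:74898092-74898121, plus strand, E-box from position 25): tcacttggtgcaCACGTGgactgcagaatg
Utp20 (chr10:88826765-88826794, minus strand, E-box from position 38): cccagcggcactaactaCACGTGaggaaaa
Utp4 (chr8:106893643-106893672, plus strand, E-box from position 16): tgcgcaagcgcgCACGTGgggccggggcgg
Wdr43 (chr17:71616220-71616249, plus strand, E-box from position 18): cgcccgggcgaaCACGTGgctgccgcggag

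At 72 h, 1 of the 50 genes was higher in treated than in untreated mice and 0 were lower, beside 4.67% of all genes higher and 3.88% lower (edgeR; 14 of the 50 at an unadjusted p under 0.05, and 2 higher with 0 lower by DESeq2). The gene was Pes1, at 66.1 to 79.7 (median 74.8) CPM in untreated and 82.6 to 89.2 (median 86.0) CPM in treated mice, a log2 fold change of 0.21 ± 0.06 (SE, adjusted p = 0.0167), with no overlap between these groups. The median over the 50 genes was -0.10 and nearer 0 over all genes, and 8 of 50 values were positive. Npm1 had 1125 to 1691 (median 1414) CPM without and 1015 to 1656 (median 1157) CPM with treatment, a log2 fold change of -0.23 ± 0.10 (SE, adjusted p = 0.173), and Gar1 -0.25 ± 0.09 (SE, adjusted p = 0.0935). Fitted on these 2 groups alone, 5 genes were lower, beside 3.84% of all genes.

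The treatment effect at 48 h exceeded that at 72 h in 30 of the 50 genes and was smaller in 0 (edgeR interaction contrast; 18.5% of all genes in the same direction and 13% in the other). The differences were 0.67 ± 0.15 (SE, adjusted p = 0.000473) for Npm1, 0.66 ± 0.13 (SE, adjusted p = 0.000146) for Gar1 and 0.57 ± 0.16 (SE, adjusted p = 0.00501) for Nolc1 on the log2 scale. For Pes1 the effects at the 2 times differed by 0.01 ± 0.08 (SE, adjusted p = 0.962), and for Wdr3 by -0.08 ± 0.09 (SE, adjusted p = 0.532). Without TMM, 16 genes were called, beside 12.3% of all genes higher, and the share of higher genes among all calls went from 58.7% to 37.6%. The 14 mice of the second experiment gave 4 calls, beside 4.16% of all genes, and the 25 of the first gave 16, beside 10.3%, all higher.

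Within treated mice, the level fell from 48 h to 72 h in 44 genes and rose in 0, beside 26.8% of all genes lower and 22.3% higher (edgeR). The median log2 fold change was -0.31 for the 50 genes and -0.01 for all genes. This contrast shares the treated 48 h mice with the 48 h comparison, so the fall and the earlier rise are not independent readings. Npm1 fell most, with 1472 to 2338 (median 1884) CPM at 48 h and 1015 to 1656 (median 1157) CPM at 72 h, a log2 fold change of -0.73 ± 0.10 (SE, adjusted p = 1.04e-07), and the groups did not overlap within either experiment. Nolc1 had 140.4 to 223 (median 182) and 98.2 to 183 (median 115) CPM, a log2 fold change of -0.61 ± 0.11 (SE, adjusted p = 1.12e-05), also without overlap within either experiment. Gar1, Rrs1, Ebna1bp2 and Nip7 did not overlap between the groups even over both experiments together. How many of all genes did so was not counted. The values were 76.6 to 101 (median 84.9) and 53.4 to 65.1 (median 61.8) CPM for Gar1 and 90.4 to 114 (median 97.3) and 70.7 to 85.8 (median 73.7) CPM for Rrs1, and their log2 fold changes were -0.60 ± 0.09 (SE, adjusted p = 3.08e-07) and -0.48 ± 0.07 (SE, adjusted p = 6.13e-07). All 13 of the other large-subunit factors, all 4 box C/D and all 3 box H/ACA genes fell. The 6 genes not called were Pes1, Polr1b, Tsr1, Nat10, Ddx10 and Wdr3, with log2 fold changes from -0.22 to -0.09. Without TMM, 31 genes fell, beside 17.9% of all genes lower and 34.4% higher, and the median of all genes moved from -0.01 to 0.09, and the share of higher genes among all calls from 45.4% to 65.7%. Naive or memory B cell markers summed to 90.6 to 186 CPM in treated mice at 48 h and 191 to 312 CPM at 72 h, without overlap. The share of cells with the B1-8hi pairing was 70.5 to 77.7% at 48 h and 62.1 to 69.2% at 72 h in the first experiment, and 53.1 to 58.0% and 32.2 to 42.3% in the second. The part of either in the fall was not tested.

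Over all cells, untreated mice gave no called member over time. From 0 h to 48 h, 0 of the 50 genes passed with edgeR (8 at an unadjusted p under 0.05) and 0 with DESeq2, beside 0.0587% of all genes higher and 0.0685% lower. From 0 h to 72 h, 0 passed with either tool (0 at an unadjusted p under 0.05 with edgeR and 4 with DESeq2), beside 1.79% and 2.62%. The median log2 fold changes of the 50 genes were 0.09 and 0.07, with 49 and 43 of 50 values positive. Fitted by experiment, they were 0.05 and 0.02 in the first and 0.19 and 0.22 in the second. Npm1, as an example, had 836 to 1700.1 (median 1128) CPM at 0 h, a wider range than at 48 h, and a log2 fold change to 48 h of 0.23 ± 0.10 (SE, adjusted p = 0.473). Within cells scored S, a cell-cycle phase taken up below, 4 of the 50 genes were higher at 48 h and 1 at 72 h than at 0 h. The shares of all genes higher there were 0.296% and 1.12%.

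Because these genes are read in cells at different points of the cycle, the sums were also taken within cell-cycle phases scored from 43 S and 54 G2M genes. The S list contains Polr1b and neither list contains another of the 50. Each library was scored on its own. Cells scored S had the highest summed level in every time-course group, with 8291 ± 1295 (SD, n = 6) CPM against 4366 ± 341 (SD, n = 6) in G1 cells and 5781 ± 765 (SD, n = 6) in G2M cells of untreated 48 h mice. Treated 48 h mice had 4477 ± 437 (SD, n = 9), 8219.9 ± 1201 (SD, n = 9) and 6712 ± 788 (SD, n = 9) CPM in G1, S and G2M cells. The share of cells scored G1 was 17.5 to 24.6% in treated and 46.6 to 56.9% in untreated mice at 48 h, and 32.5 to 40.2% and 18.7 to 26.0% were scored S.

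**Figure D4:**
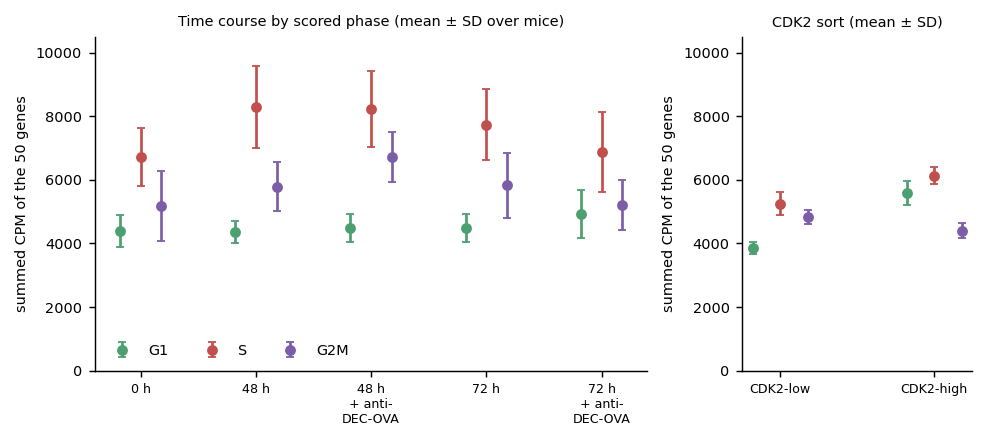
Summed CPM of the 50 genes in cells scored G1, S or G2M (mean ± SD over mice) for each time-course group and for the CDK2 sort. In the time course S cells are highest and G1 cells lowest in every group, and at 48 h the treated and untreated means differ by less than their SDs in G1 and in S.

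Within a phase, fewer of the 50 genes and fewer of all genes were called at 48 h. In G1 cells, 0 of 50 passed with edgeR (4 at an unadjusted p under 0.05), beside 4.79% of all genes, with a median log2 fold change of 0.05. In S cells it was 0 (2 unadjusted), beside 5.48% of all genes, with a median of 0.01. In G2M cells, 13 genes were higher, beside 9.61% of all genes, with a median of 0.20. Npm1 had log2 fold changes of 0.14 ± 0.08 (SE) in G1, 0.07 ± 0.09 in S and 0.39 ± 0.12 in G2M cells, against 0.45 ± 0.10 over all cells. Gar1 had 0.12 ± 0.12, 0.08 ± 0.08 and 0.31 ± 0.10, and Ncl 0.01 ± 0.07, -0.08 ± 0.08 and 0.20 ± 0.08. The difference between phases was not tested.

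The fall in treated mice from 48 h to 72 h showed within S and G2M cells. In S cells, 32 of the 50 genes fell, beside 12.4% of all genes, and in G2M cells 35 fell, beside 14.4%. In G1 cells 0 fell (7 at an unadjusted p under 0.05 in either direction) and 1 rose, beside 1.27% of all genes, with a median of 0.07. Nolc1 had log2 fold changes of 0.17 ± 0.13 (SE) in G1, -0.39 ± 0.10 in S and -0.61 ± 0.13 in G2M cells. Npm1 had -0.08 ± 0.08, -0.48 ± 0.08 and -0.72 ± 0.11. The gene called higher in G1 cells was Utp20, at a log2 fold change of 0.49 ± 0.14.

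**Figure D5:**
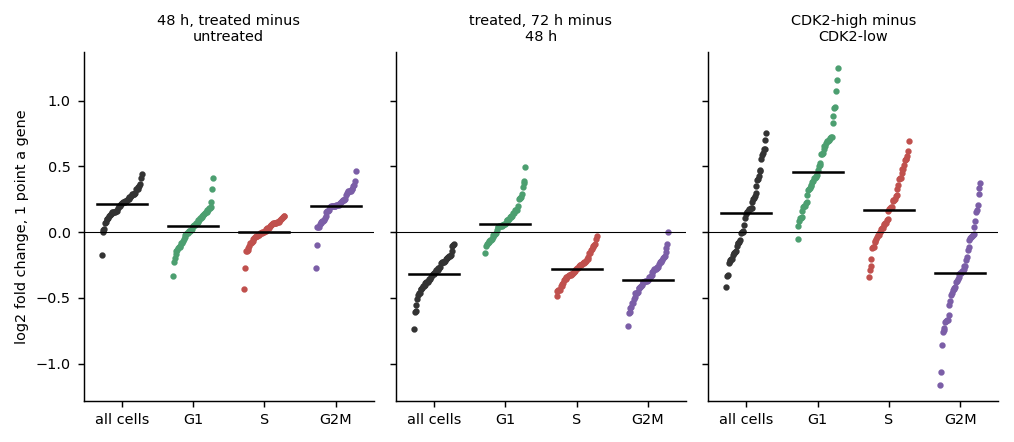
Log2 fold change of each of the 50 genes (1 point a gene, black lines are medians; 49 in G2M cells of the sort) over all cells and within cells scored G1, S or G2M, for 3 comparisons. At 48 h the medians are 0.22 over all cells, 0.05 in G1, 0.01 in S and 0.20 in G2M, and in the sort they run from 0.45 in G1 to -0.31 in G2M.

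The sort asked how the same genes stand in cells of high and low CDK2 activity 72 h after treatment. The study compared the states among cells whose transcripts placed them in the DZ. No filter on zone was applied here, so the states may also differ in zone. The summed level was 5233 ± 181 (SD, n = 7) CPM in CDK2-high and 4533 ± 228 (SD, n = 7) CPM in CDK2-low cells, higher in CDK2-high cells of all 7 mice. Npm1 and Ncl carried most of this difference. Their means were 1228 and 953 CPM in CDK2-high and 833 and 704 CPM in CDK2-low cells. The rise of the sum therefore does not describe the 50 genes as a whole. UMIs of all genes per cell had a lower mean in CDK2-high than in CDK2-low cells, at 10973 ± 739 (SD, n = 7) and 13409 ± 1269.7 (SD, n = 7). UMIs of the 50 genes per cell ranged from 50.7 to 66.2 (mean 57.5) in CDK2-high and from 52.5 to 74.2 (mean 60.9) in CDK2-low cells, a ratio of the means of 0.944, and were lower in CDK2-high cells of 6 of 7 mice. Of the 50 genes, 27 were higher and 12 lower in CDK2-high cells (edgeR with mouse as block), beside 36.5% and 38.6% of all 10120 genes. The median log2 fold change was 0.14 for the 50 and -0.02 for all genes. This split depended on scaling: without TMM the median of all genes was -0.22, and 16 of the 50 were higher and 24 lower, beside 23.8% and 57.5% of all genes, with the share of higher genes among all calls at 48.6% with TMM and 29.3% without. In unscaled CPM, 12 genes were higher in CDK2-high cells in all 7 mice and 19 in none. These counts were not taken over all genes, of which 57.5% were lower without TMM, so they describe no trait particular to the 50. Naive or memory B cell markers were at 90.9 to 166 CPM in CDK2-high and 314 to 493 CPM in CDK2-low cells. Plasma cell markers were at 84.0 to 107 and 118 to 143 CPM, also without overlap. The medians of the GC genes went both ways. Bcl6 and Rgs13 had medians of 243 and 74.3 CPM in CDK2-high and 385 and 99.0 CPM in CDK2-low cells. Fas and S1pr2 were likewise lower in CDK2-high cells, at 176 and 174 CPM against 220 and 245 CPM. Mef2b went the other way, at 390 CPM in CDK2-high and 372 CPM in CDK2-low cells. The part of these markers was not tested.

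Nucleolar chaperones, the core snoRNP proteins and Ncl were higher in CDK2-high cells, with and without TMM. Npm1 had 755 to 895 (median 834) CPM in CDK2-low and 1146 to 1275 (median 1228) CPM in CDK2-high cells, a log2 fold change of 0.75 ± 0.02 (SE, adjusted p = 1.85e-19), and Nolc1 had 84.3 to 111 (median 89.0) CPM in CDK2-low and 119 to 141 (median 123) CPM in CDK2-high cells, a log2 fold change of 0.64 ± 0.03 (SE, adjusted p = 1.08e-15). Neither overlapped between the states, and both were higher in all 7 mice. Nop58 had 128 to 159 (median 135) CPM in CDK2-low and 188 to 209.7 (median 196) CPM in CDK2-high cells, a log2 fold change of 0.70 ± 0.03 (SE, adjusted p = 1.81e-17). Fbl had 100.3 to 119.7 (median 111) CPM in CDK2-low and 122 to 143 (median 138) CPM in CDK2-high cells, a log2 fold change of 0.47 ± 0.03 (SE, adjusted p = 4.72e-12), and neither gene overlapped between the states. In box H/ACA particles, Gar1 had 42.7 to 56.2 (median 46.6) CPM in CDK2-low and 59.8 to 71.5 (median 64.4) CPM in CDK2-high cells and Nhp2 102 to 129 (median 112) CPM in CDK2-low and 142 to 157 (median 146) CPM in CDK2-high cells. Their log2 fold changes were 0.60 ± 0.04 (SE, adjusted p = 9.46e-13) and 0.56 ± 0.03 (SE, adjusted p = 1.94e-14), higher in all 7 mice. Ncl, at 661 to 762 (median 702) CPM in CDK2-low and 877 to 998 (median 958) CPM in CDK2-high cells, had a log2 fold change of 0.63 ± 0.02 (SE, adjusted p = 6.22e-19).

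The large-subunit helicase Ddx27 had 75.4 to 94.6 (median 83.2) CPM in CDK2-low and 104 to 116 (median 112) CPM in CDK2-high cells, with a log2 fold change of 0.58 ± 0.04 (SE, adjusted p = 2.01e-13) and no overlap, and Rrs1 had 55.1 to 75.7 (median 66.4) CPM in CDK2-low and 68.7 to 84.2 (median 77.4) CPM in CDK2-high cells, with 0.40 ± 0.04 (SE, adjusted p = 5.46e-09) and ranges that overlapped although all 7 mice went up. Of the processome, Noc4l had 24.7 to 33.2 (median 27.0) CPM in CDK2-low and 30.1 to 37.0 (median 31.3) CPM in CDK2-high cells, a log2 fold change of 0.43 ± 0.05 (SE, adjusted p = 6.89e-09) with all 7 mice higher. For Wdr75, at 35.8 to 46.8 (median 40.2) CPM in CDK2-low and 38.8 to 45.2 (median 43.1) CPM in CDK2-high cells, the log2 fold change was 0.26 ± 0.05 (SE, adjusted p = 3.43e-05) with TMM and 0.06 without (adjusted p = 0.235), and 4 of 7 mice were higher in CPM. For Nifk and Wdr12 of the PeBoW group the sign itself turned on scaling. Nifk, at 35.5 to 48.9 (median 40.6) CPM in CDK2-low and 38.2 to 49.8 (median 40.1) CPM in CDK2-high cells, had 0.19 ± 0.04 (SE, adjusted p = 0.000374) with TMM and -0.01 without. Wdr12, at 43.4 to 53.6 (median 48.6) CPM in CDK2-low and 41.0 to 49.9 (median 46.3) CPM in CDK2-high cells, had 0.16 ± 0.04 (SE, adjusted p = 0.000961) with TMM and -0.04 without. Pes1 of the same group, which rose at 48 h, was called lower in CDK2-high cells with TMM. It had 81.1 to 98.6 CPM in CDK2-low and 66.3 to 74.7 CPM in CDK2-high cells, lower in all 7 mice. Bop1 was not called.

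Polr1a, Tsr1 and Bysl were lower in CDK2-high cells, with and without TMM. Polr1a had 25.6 to 33.1 (median 27.2) CPM in CDK2-low and 17.9 to 20.5 (median 19.2) CPM in CDK2-high cells, a log2 fold change of -0.33 ± 0.06 (SE, adjusted p = 1.95e-05), without overlap and lower in all 7 mice. The late small-subunit factors had 3 of 5 genes lower and 0 higher, beside 38.6% and 36.5% of all genes. Among them Tsr1 had 45.2 to 56.0 (median 48.6) CPM in CDK2-low and 31.4 to 40.6 (median 37.7) CPM in CDK2-high cells and Bysl, which binds the maturing small subunit, 18.3 to 24.6 (median 20.8) CPM in CDK2-low and 15.3 to 18.2 (median 15.8) CPM in CDK2-high cells, with log2 fold changes of -0.22 ± 0.04 (SE, adjusted p = 9.87e-05) and -0.20 ± 0.06 (SE, adjusted p = 0.00635). The processome had 5 of 14 genes higher and 5 lower, shares near those over all genes. Without TMM it had 1 higher and 9 lower, beside 23.8% and 57.5% of all genes. Utp15, Wdr43 and Nop14, called higher with TMM, turned sign without it. The lowest value was -0.42 for the RNA acetyltransferase Nat10.

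The split differed by phase. CDK2-low cells were scored G1 in 52.7 to 63.2% and G2M in 6.65 to 12.6% of cells, and CDK2-high cells in 12.6 to 19.1% and 45.6 to 56.9%. Among cells scored G1, 43 of the 50 genes were higher in CDK2-high cells and 0 lower, beside 30.7% of all genes higher. The summed level there was 5588 ± 385 (SD, n = 7) CPM in CDK2-high and 3859 ± 191 (SD, n = 7) CPM in CDK2-low cells. Among S cells 25 were higher and 3 lower, beside 30.2% and 32% of all genes. Among G2M cells the order turned, with 5 of 49 genes higher and 29 lower, beside 25.7% and 25.4%, and sums of 4395 ± 238 (SD, n = 7) and 4836 ± 224 (SD, n = 7) CPM. CDK2-low populations held 278 to 1102 cells a mouse over all phases, so their G2M values rest on few cells. Nop58 had log2 fold changes of 1.25 ± 0.06 (SE) in G1 and 0.15 ± 0.06 in G2M cells, and Rrs1 0.95 ± 0.07 and -0.67 ± 0.09. Tsr1, lower over all cells, had 0.60 ± 0.08 in G1 and -1.16 ± 0.10 in G2M cells. Npm1 and Ncl were called higher in CDK2-high cells in all 3 phases, at 0.33 to 0.95 and 0.38 to 0.72 on the log2 scale. The difference between phases was not tested.

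A further 94 ribosome biogenesis genes outside the 50 were counted in the same fits, of which 93 were tested. At 48 h 46 were higher and 3 lower, beside 26.3% and 21.1% of all genes, with a median of 0.15 (treated minus untreated). In treated mice from 48 h to 72 h 3 were higher and 56 lower, beside 22.3% and 26.8% of all genes, with a median of -0.20. At 72 h 2 were higher and 0 lower, beside 4.67% and 3.88%, with a median of -0.03. The other RNA polymerase I and ribosomal DNA genes had 5 of 13 higher at 48 h, the small-subunit genes 18 of 36 and the large-subunit genes 23 of 44. In the sort, 51 were higher and 21 lower, beside 36.5% and 38.6% of all genes, with a median of 0.13 in CDK2-high cells. Myc, the growth regulator, had 27.6 to 53.4 (median 33.0) CPM in untreated and 27.5 to 43.7 (median 33.0) CPM in treated mice at 48 h and a log2 fold change of -0.03 ± 0.18 (SE, adjusted p = 0.901). Mki67, which marks cycling cells, rose by a log2 fold change of 0.49 ± 0.08 (SE, adjusted p = 4.22e-06) at 48 h and was 2.41 ± 0.03 (SE, adjusted p = 1.04e-28) higher in CDK2-high cells on the log2 scale.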

How the data were processed

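The authors deposited raw UMI counts per gene and cell from Cell Ranger, with hashtag counts in the same matrices and a list of mice for each pool. The file headers and the study's methods name Cell Ranger 8.0.1, the submitters' processing notes list 6.0.1, the build was mm39, and the authors used Seurat 5.1.0. Here, cells were assigned to mice with HTODemux (Seurat 5.3.0, quantile 0.99) and kept with at least 200 genes and at most 10% mitochondrial UMIs, which left 13625, 10073, 7448 and 4385 cells of 16424, 18233, 9358 and 5206 barcodes. Barcodes positive for more hashtags than a mouse carried were removed, and no other doublet caller was run. In the CDK2 sort 9 mice were listed and 7 had cells. Counts were summed per mouse, the replicate, and tested with edgeR 4.0.16 in R 4.3.3 (quasi-likelihood, filterByExpr, TMM, Benjamini-Hochberg adjusted p below 0.05). The time course carried an experiment term and the sort a mouse block. DESeq2 1.42.0 was an alternative, and the others were scaling, filters, experiments alone, B1-8hi pairing, hashtag rule, phase and mice left out. The C and N samples of a mouse come from the same animal, and their deviations correlated at 0.110 to 0.421. The fitting was tested on simulated data.

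In each role list, with an average log2 CPM above 4, the 2 genes with the largest and the 1 with the smallest absolute log2 fold change at 48 h, and the 2 with the largest in the sort, are given with values per mouse. The members, roles, lists and this rule were chosen with earlier results of these data known. Libraries of other experiments of the series were not used here. A further gene of the GC B cell marker list is not reported here.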

Additional observations from a re-analysis of the deposited data

Results flagged for a closer look

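In 9 of 189 groups of mice tested, the highest or lowest mouse lay farther from the rest than Dixon's limit allows, and chance flags about 1 in 20 groups. The time-course groups hold mice of both experiments and the limit takes no account of the experiment, and 5 of the 6 time-course values so found came from mice of the second experiment. In the time course these were Ltv1 in a treated 48 h mouse (44.1 CPM against 31.9 to 38.0 in the others), Nhp2 in a treated 72 h mouse (192 CPM against 145 to 159 in the others) and Noc4l in an untreated 72 h mouse (47.0 CPM against 33.3 to 39.1 in the others). At 0 h they were Noc3l (30.2 CPM against 15.3 to 22.3 in the others) and Polr1a (33.4 CPM against 21.7 to 26.8 in the others) in the same mouse, and Wdr3 (68.0 CPM against 46.4 to 57.2 in the others) in another. In the sort they were Nifk in CDK2-high cells of a mouse (49.8 CPM against 38.2 to 42.7 in the others), Wdr12 in CDK2-high cells of another (41.0 CPM against 46.3 to 49.9 in the others) and Polr1a in CDK2-low cells of that second mouse (33.1 CPM against 25.6 to 28.8 in the others).

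The treatment effect differed between 48 h and 72 h in 30 of the 50 genes by the edgeR interaction contrast, and all 30 differences were positive. Of all genes, 18.5% differed in that direction and 13% in the other. Without TMM the count was 16, and with the second experiment alone it was 4.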

How the results depend on the processing

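The counts of genes called were within 1.5 times the main ones except where given here, and the cause was not tested. The share of all genes called in the same direction is in parentheses. At 48 h, 17 genes were higher without the experiment term (15.5%), 18 with the first experiment alone (18.2%), 10 with the second alone (10.7%), 13 with B1-8hi pairing only (16.8%), 0 in G1 (4.79%), 0 in S (5.48%) and 13 in G2M cells (9.61%). At 72 h, 2 were higher with DESeq2 (5.86%), 0 without the experiment term (1.06%), 0 with the second experiment (0.0968%), 4 in G1 (4.08%), 0 in S (2.51%) and 0 in G2M cells (1.84%), and 5 were lower with the 2 groups alone (3.84%) and 2 in S cells (1.87%). From treated 48 h to 72 h, 19 were lower with the second experiment alone (13.4%), and in G1 cells 0 were lower (4.22%) and 1 was higher (1.27%). In untreated S cells 4 were higher at 48 h (0.296%) and 1 at 72 h (1.12%) than at 0 h. For the interaction the count was 16 without TMM (12.3%), 8 without the experiment term (7.67%), 16 (10.3%) and 4 (4.16%) with the first and second experiment, 16 with B1-8hi pairing (9.12%), 0 in G1 (1.96%), 0 in S (2.54%) and 17 in G2M cells (5.75%). In the sort, 16 were higher (23.8%) and 24 lower (57.5%) without TMM, 43 (30.7%) and 0 (31.3%) in G1 cells, 3 were lower in S cells (32.0%), and 5 were higher (25.7%) and 29 lower (25.4%) in G2M cells. Leaving out a mouse of the sort gave 26 to 27 higher and 11 to 13 lower, and without the replicate block, which pairs the samples of a mouse, 26 were higher and 11 lower. An alternative chosen after seeing the data left out a 0 h mouse and kept both untreated counts at 0.

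Among the genes chosen by the naming rule, the log2 fold changes that turned sign were, at 48 h, Nolc1 -0.02, Fbl -0.13, Dkc1 -0.00 in G1 and Ncl -0.08, Nolc1 -0.02, Nop58 -0.01, Dkc1 -0.03, Noc4l -0.05 in S cells. From treated 48 h to 72 h they were Polr1a 0.26, Ddx21 0.06, Ncl 0.05, Nolc1 0.17, Fbl 0.25, Nop58 0.05, Rrp9 0.39, Dkc1 0.05, Gar1 0.02, Nhp2 0.05, Ltv1 0.05, Wdr12 0.07, Rrs1 0.11, Nop2 0.27 in G1 cells, Noc3l 0.00 in G2M cells and Rrp9 0.00 with the second experiment alone. For the interaction they were Ncl -0.04, Nolc1 -0.04, Fbl -0.29, Nop58 -0.09, Dkc1 -0.07, Wdr75 -0.03, Ltv1 -0.24, Bop1 -0.02, Rrs1 -0.21, Nop2 -0.04 in G1 and Noc4l -0.04 in S cells. In the sort they were Polr1a 0.11, Bysl 0.36, Tsr1 0.60 in G1 cells, Gar1 -0.04, Nhp2 -0.02, Wdr75 -0.19, Noc4l -0.06, Wdr12 -0.03, Nifk -0.30, Rrs1 -0.67 in G2M cells and Wdr12 -0.04, Nifk -0.01 without TMM, where 12 of the 50 genes turned sign in all.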
